A study of Mus musculus with 2 samples.

Results

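The 10 genes described here encode proteins that the lining of the stomach secretes or carries on its surface: Cym, Ctse, Pgc, Gkn1, Gkn2, Muc1, Muc5ac, Psca, Vsig1 and Vsig2. They were chosen by symbol from a list of gastric epithelial genes without the trefoil factors, and 10 of the 27998 genes in the deposited matrices were members. The series asks how Nkx2-1, a homeobox gene that lung epithelial cells express, controls alveolar type 1 (AT1) cells, the thin cells across which gas is exchanged. Single cells of the mouse lung were profiled at postnatal day 10, with 1 library of the genotype label control and 1 labelled mutant. The sample names give Nkx2-1 for the control and Nkx2-1;Aqp5 for the mutant. Aqp5 encodes a water channel of AT1 cells and of some other epithelia, and recombinases expressed from its locus are known tools for AT1 cells. The sources used here do not give the alleles behind these names, those that the control may carry, or the number of mice per library. Both libraries held epithelial, immune, endothelial and mesenchymal cells purified by FACS and were made with the 10x Chromium 3' kit.

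Lung and stomach epithelium both arise from the foregut endoderm of the embryo, and Nkx2-1 is known to mark the lung side of that tissue. In the stomach, surface mucous cells make mucins, trefoil factors and gastrokines, while chief cells secrete pepsinogens, the inactive forms of acid-activated peptidases. Muc1 and Pgc are not confined to the stomach: Muc1 lines many epithelia, and both are known from alveolar type 2 (AT2) cells, which secrete surfactant.

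The depth and the cell classes were as follows. The control matrix had 4461 barcodes with 29862980 UMIs in total (unique molecular identifiers, each a captured transcript), and the mutant matrix had 4551 with 47271104. Filters left 4064 cells in the control and 4327 in the mutant, and 27 barcode sequences occurred in both libraries. Cells were classed by clustering, with the 10 genes, other gut genes and the family and factor lists below kept out of the genes used. The genes kept out thus included Sftpc, Napsa and Nkx2-1. The AT1 compartment means epithelial cells in no AT2-like, airway, neuroendocrine-like or basal-like cluster, so that a cell with few AT1 markers stays in it. It held 590 control cells (median 6473 UMIs) and 2273 mutant cells (median 12366 UMIs). There were 1242 control and 218 mutant AT2-like cells, and 146 and 75 airway cells (club-like and ciliated-like). The 11 AT1 markers summed to 32612 CPM (UMIs scaled to a class total of 1000000) in the control compartment and to 2549 CPM in the mutant compartment, where 10 of the 11 were seen in at least 10% of cells and none was at 0. Nkx2-1 was at 483 CPM in control compartment cells against 14.1 CPM in mutant ones (the sources used here do not say whether its 3' reads lie in the altered part of the gene). Since each group is 1 library, no difference has a replicate check or a test. Every interval below is an exact 95% interval that covers counting error only, and it says nothing of the spread between mice.

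The 10 genes lie on 8 chromosomes of the mouse (GRCm38, GENCODE annotation), and none overlaps another annotated gene on either strand. Promoter windows from RefSeq (GRCm38.p6) were at hand for 6 of the 10: Cym, Pgc, Gkn1, Gkn2, Muc1 and Vsig1. The 250 bases before the start of 4 of them are printed 5' to 3' on the gene's strand, because 3 of these genes were higher and 1 was lower in the mutant AT1 compartment. The capitals mark TATAAA, the letters of a TATA box. The windows are chr3:107221733-107221982 (minus strand) for Cym, chr3:89228806-89229055 (plus strand) for Muc1, chrX:140907358-140907607 (plus strand) for Vsig1 and chr17:47726592-47726841 (plus strand) for Pgc.
Cym: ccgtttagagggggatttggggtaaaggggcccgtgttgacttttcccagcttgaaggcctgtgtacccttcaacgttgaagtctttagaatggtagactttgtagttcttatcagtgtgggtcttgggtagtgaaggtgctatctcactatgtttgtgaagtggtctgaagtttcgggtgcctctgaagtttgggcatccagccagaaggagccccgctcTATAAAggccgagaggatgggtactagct
Muc1: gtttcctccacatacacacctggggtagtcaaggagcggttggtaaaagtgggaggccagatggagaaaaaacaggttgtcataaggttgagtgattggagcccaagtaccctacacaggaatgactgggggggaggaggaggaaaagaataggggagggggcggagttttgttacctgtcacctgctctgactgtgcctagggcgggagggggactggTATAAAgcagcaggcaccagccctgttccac
Vsig1: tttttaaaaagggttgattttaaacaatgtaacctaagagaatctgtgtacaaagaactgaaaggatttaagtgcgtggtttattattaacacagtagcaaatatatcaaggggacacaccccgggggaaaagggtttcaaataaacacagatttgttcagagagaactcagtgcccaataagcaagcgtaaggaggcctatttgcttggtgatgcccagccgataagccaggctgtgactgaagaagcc
Pgc: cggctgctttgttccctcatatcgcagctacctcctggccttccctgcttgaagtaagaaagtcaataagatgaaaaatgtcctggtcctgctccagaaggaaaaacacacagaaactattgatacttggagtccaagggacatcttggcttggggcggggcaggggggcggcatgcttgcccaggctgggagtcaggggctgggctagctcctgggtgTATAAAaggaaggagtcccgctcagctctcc
The letters TATAAA, searched on both strands, stood in 4 of the 6 windows (Cym, Pgc, Gkn2 and Muc1) and in 12.4% of all 32851 RefSeq windows of this length. In these 4 genes they began 29 to 31 bases before the start, whether the gene was higher (Cym, Muc1), lower (Pgc) or nearly unseen (Gkn2). The core letters of an Nkx2-1 site, CTTGAG, stood in 1 of the 6 windows (Gkn1) and in 13.3% of all windows. The letters TGTTTAC, bound by Foxa factors, and CAAAGTCCA, bound by Hnf4a, stood in none of the 6, against 3.17% and 0.384% of all windows. A match is a description of letters and not a binding site.

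In the AT1 compartment, 6 of the 10 genes were at least 2-fold higher in the mutant library, and 4 of these 6 were at 0 or 1 UMI in the control. Cym, Psca and Vsig1 had no UMI in 590 control cells and 9544, 4640 and 652 UMIs in 2273 mutant cells. Ctse had 1 control UMI and 2498 mutant UMIs. Muc1 and Vsig2, which the control lung already expressed, were 9.60-fold and 5.82-fold higher. Pgc was 4.28-fold lower, and Gkn1, Gkn2 and Muc5ac stayed at 1, 8 and 16 UMIs in the mutant. Counted per gene, 7 of the 10 had at least 20 UMIs over both libraries, of which 6 were higher and 1 lower, with a median log2 ratio of 4.8 when a gene at 0 in the control takes 3 counts as its floor. By the same rule 21.9% of 12869 genes were at least 2-fold higher and 11.9% at least 2-fold lower, with a median of 0.17. A gene at 0 in the control passes the 20 UMIs through the mutant alone, so these counts describe the genes and are not support. Summed over the 10 genes, the level was 118 CPM (108 to 129) in control cells against 1253 CPM in the mutant compartment, 10.6-fold higher (9.70 to 11.6).

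**Figure D1:**
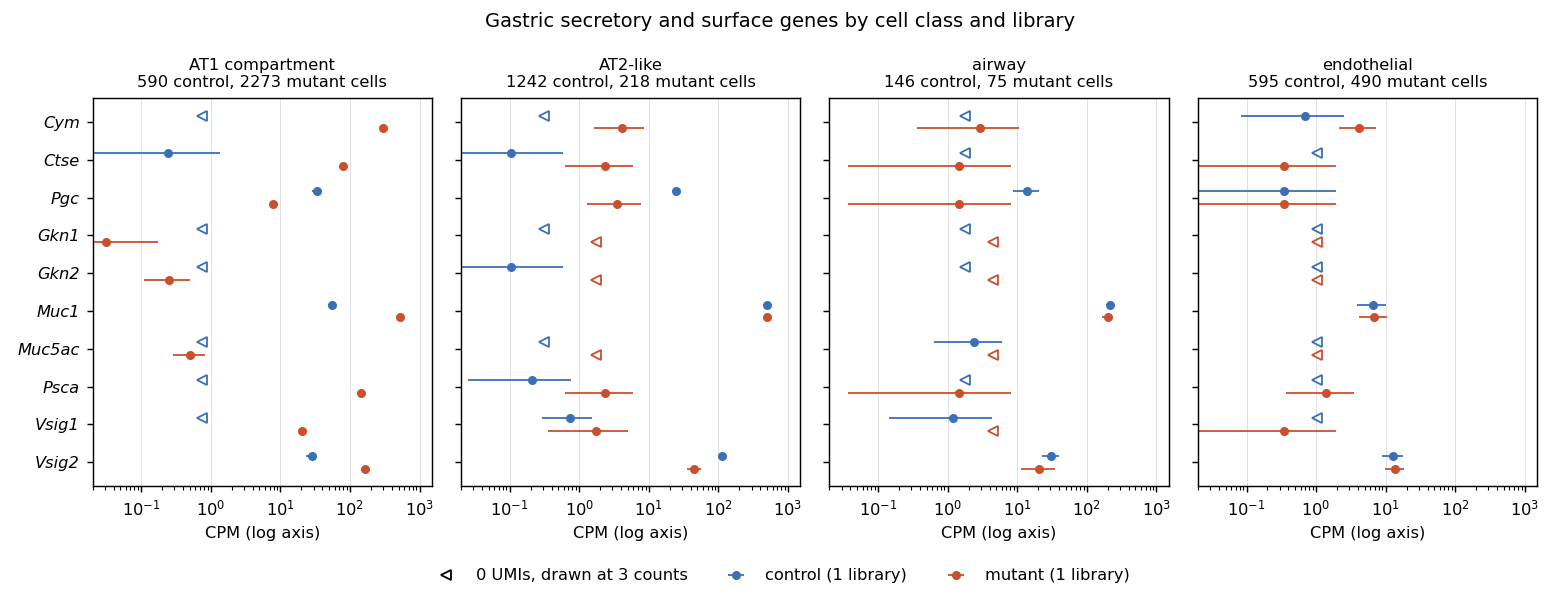
Level of each gene in CPM on a log axis, in 4 cell classes, with control in blue and mutant in orange; bars are exact 95% Poisson intervals, cut at the left edge of the axis, and open triangles mark 0 UMIs, drawn at 3 counts. In the AT1 compartment the mutant points of Cym, Ctse, Muc1, Psca, Vsig1 and Vsig2 lie to the right of the control and that of Pgc to the left, while Muc1 points coincide in AT2-like and in endothelial cells.

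The aspartic peptidases come first. Cym (ENSMUSG00000046213, chromosome 3, 107211293 to 107221732, minus strand) encodes chymosin, the milk-clotting peptidase of the young stomach. It was at 0 CPM in the control compartment, where 0 of 590 cells allows a share of up to 0.508% of cells with a UMI by the limit of 3 counts (0.623% by the exact interval), and at 301 CPM (295 to 307) in the mutant. Against the floor of 3 counts over the control class, it was at least 407-fold higher. The mutant library held 10004 Cym UMIs in 613 barcodes and the control library 3 UMIs in 2. Cym lay at 4.08 CPM in mutant AT2-like cells, 2.95 CPM in airway, 4.10 CPM in endothelial, 2.27 CPM in mesenchymal and 3.41 CPM in immune cells. These 5 levels were low and their intervals overlap, and the part of free RNA in them was not tested.

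Ctse (ENSMUSG00000004552, chromosome 1, 131638306 to 131675505, plus strand) encodes cathepsin E, an intracellular peptidase of gastric surface cells and of some immune cells. Its level was 0.247 CPM from 1 UMI in the control compartment and 78.8 CPM (75.7 to 82.0) in the mutant, 320-fold higher with a wide interval of 57.3 to 12631. In the control library 11 of its 14 UMIs came from immune cells (5.61 CPM), among them 5 from B-like and 4 from T and NK-like cells. Mutant immune cells held 3 UMIs (2.56 CPM). In the control library Ctse was thus seen mainly in immune cells, with 2 UMIs in the epithelium.

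Pgc (ENSMUSG00000023987, chromosome 17, 47726842 to 47734482, plus strand) encodes pepsinogen C. It went the other way. The control compartment held 138 UMIs at 34.0 CPM (28.6 to 40.2) and the mutant 252 UMIs at 7.95 CPM (7.0 to 8.99), 4.28-fold lower (3.45 to 5.29). In AT2-like cells 24.4 CPM stood against 3.49 CPM (6 UMIs), which is 6.98-fold lower (3.16 to 19.2). In airway cells 23 control UMIs, all in ciliated-like cells, stood against 1 mutant UMI, a ratio of 0.108 (0.00263 to 0.668). Pgc was thus lower in the mutant in each of the 3 epithelial classes. In endothelial, mesenchymal and immune cells it had at most 2 UMIs per class and library. Of the 218 mutant AT2-like cells, 196 lay in cluster 8, 18 in cluster 3 and 4 in cluster 0. In cluster 8 Pgc was at 29.0 CPM in 89 control cells and 2.57 CPM in 196 mutant cells, a ratio of 0.0886 (0.0225 to 0.256). The few mutant cells of clusters 0 and 3 held 2 and 0 Pgc UMIs, and in cluster 0 the ratio was 2.11 (0.253 to 7.79), so the AT2-like value rests on cluster 8.

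Of the 9 listed peptidases of this family, 7 had at least 20 UMIs in the compartment. Of these, 3 were at least 2-fold higher (Cym, Ctse and Bace2), 2 were lower (Pgc and Napsa) and 2 lay between. Over all 12869 genes measured this way, 21.9% were higher and 11.9% lower. Cym, Ctse and Bace2, with 0, 1 and 7 control UMIs, passed the 20 UMIs through the mutant alone, so this count is not support. Napsa, the napsin A of AT2 cells that helps to process surfactant protein B, was at 210 against 62.0 CPM, 3.39-fold lower. Ctsd, the lysosomal cathepsin D, was at 200 and 221 CPM, a ratio of 1.11 (1.03 to 1.19). Bace2, a membrane-bound protease, was at 1.73 and 23.2 CPM, a ratio of 13.4 (6.48 to 33.5). Pga5, a pepsinogen of chief cells, had 0 control and 4 mutant UMIs in the compartment.

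Gkn1 (ENSMUSG00000030050, chromosome 6, 87345650 to 87350942, minus strand) and Gkn2 (ENSMUSG00000030049, chromosome 6, 87373357 to 87379497, plus strand) encode gastrokines, secreted BRICHOS domain proteins of gastric surface mucous cells. The 2 genes start 22415 bases apart and point away from each other. Gkn1 had 0 UMIs in the whole control library and 1 in the whole mutant library. Gkn2 had 1 and 10 UMIs, and 5 of the 10 came from 1 barcode. In the compartment, 8 Gkn2 UMIs in 4 of 2273 mutant cells stood against 0 in 590 control cells. The 8 UMIs are 0.252 CPM, below the 0.740 CPM that 3 counts are worth in the control class, so no difference was detectable at this depth. Of 9 listed BRICHOS domain genes 5 had at least 20 UMIs, of which 0 were at least 2-fold higher and 3 lower. Among all 12869 genes with that many UMIs in the compartment, 21.9% were higher and 11.9% lower. Itm2b, a widely expressed membrane protein, was at 1082 and 648 CPM. Sftpc, the surfactant protein C of AT2 cells, was at 20378 and 1955 CPM, and Itm2a, a membrane protein, was at 140 and 15.6 CPM.

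The mucins differed among themselves. Muc1 (ENSMUSG00000042784, chromosome 3, 89229057 to 89233381, plus strand) encodes a transmembrane mucin. It had 225 UMIs at 55.5 CPM (48.5 to 63.2) in the control compartment and 16881 UMIs at 533 CPM (525 to 541) in mutant cells, for a ratio of 9.60 (8.42 to 11). In the AT2-like class Muc1 was at 507 CPM (493 to 521) in control cells against 504 CPM (471 to 538) in mutant cells, for a ratio of 0.994 (0.923 to 1.07). The mutant compartment therefore carried Muc1 at a level near that of AT2-like cells in either library. Airway cells were at 216 and 199 CPM, a ratio of 0.922 (0.751 to 1.13), which pools 2 ratios on opposite sides of 1. Club-like cells were at 353 and 259 CPM, a ratio of 0.735 (0.572 to 0.936), with 24 mutant cells. Ciliated-like cells were at 85.7 and 139 CPM, a ratio of 1.62 (1.10 to 2.37), with 51 mutant cells. Endothelial cells, which should lack the gene, were at 6.53 and 6.83 CPM.

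Most of the control compartment's Muc1 came from few cells. Cluster 9, a cluster with AT1 markers that also held AT2 markers (119275 CPM summed over 10 in the control), had 74 of the 590 control cells and 182 of the 225 UMIs, or 80.9%. It was at 309 CPM, while cluster 2, which held the other AT1-like control cells, was at 12.4 CPM (8.99 to 16.7). The 10 AT2 markers summed to 21789 CPM in the control compartment and 2364 CPM in the mutant, with none at 0, and their part in the level of Muc1, Vsig2 and Pgc was not tested. Where each library was clustered alone, the log2 ratio of Muc1 was 4.87 instead of 3.26, and at a finer clustering (resolution 2) it was 4.14.

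Muc5ac (ENSMUSG00000037974, chromosome 7, 141788972 to 141819231, plus strand) encodes the gel-forming mucin of gastric surface cells and of airway goblet cells. It had 0 UMIs in the control compartment and 16 UMIs in 12 of 2273 mutant cells. At 0.505 CPM the mutant level was below the value of the control floor, and no fold is given. The control library held 5 UMIs in all, 4 of them in 1 club-like cell, and mutant mesenchymal cells held 5 UMIs. Of 12 listed mucins, 4 had at least 20 UMIs in the compartment. Of these 4, 4 were at least 2-fold higher, where 21.9% of 12869 genes were. Beside Muc1 they were Muc4, a membrane mucin at 0.247 and 20.8 CPM (ratio 84.5, 15.1 to 3341), Muc20, at 0 and 5.33 CPM and at least 7.21-fold higher, and the gel-forming Muc5b, at 0 and 5.27 CPM and at least 7.12-fold higher. Muc4, Muc5b and Muc20 passed the 20 UMIs through the mutant alone, so the count describes the mucins and is not support. Muc6, the gel-forming mucin of gastric glands, had 0 and 13 UMIs.

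Of the surface proteins, Psca (ENSMUSG00000022598, chromosome 15, 74714839 to 74717069, plus strand) is a small lipid-anchored protein of the Ly6 family, found on gastric, bladder and prostate epithelium. It had 0 UMIs in the control compartment and 4640 UMIs at 146 CPM (142 to 151) in the mutant, at least 198-fold higher. In mutant AT2-like cells it was at 2.33 CPM (4 UMIs) and in mutant endothelial cells at 1.37 CPM (4 UMIs). The whole control library held 3 Psca UMIs in 3 barcodes. Of 16 listed Ly6 family genes 11 had at least 20 UMIs, and 9 were at least 2-fold higher while 0 were lower. By the same rule 21.9% of 12869 genes were higher and 11.9% lower. Genes at 0 in the control, such as Psca, passed the 20 UMIs through the mutant alone, so this count is not support. Ly6e was at 26.1 and 1100 CPM, a ratio of 42.1 (34.8 to 51.4), Ly6g6c at 0.986 and 46.9 CPM, and Ly6a at 3.94 and 51.2 CPM.

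Vsig1 (ENSMUSG00000031430, chromosome X, 140907608 to 140939472, plus strand) encodes a junction protein of the immunoglobulin superfamily known from gastric epithelium. It had 0 UMIs in the control compartment and 652 UMIs at 20.6 CPM (19 to 22.2) in the mutant, at least 27.8-fold higher. Unlike Cym, it also had 7 UMIs in control AT2-like cells (0.732 CPM) and 2 in control club-like cells. Mutant AT2-like cells had 3 UMIs (1.75 CPM), a ratio of 2.39 whose interval of 0.398 to 10.4 spans 1.

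Vsig2 (ENSMUSG00000001943, chromosome 9, 37539255 to 37544205, plus strand) encodes a related membrane protein. It was higher in the mutant AT1 compartment and lower in mutant AT2-like cells. The control compartment held 115 UMIs at 28.3 CPM (23.4 to 34.0) and the mutant 5228 UMIs at 165 CPM (160 to 169), a ratio of 5.82 (4.84 to 7.06). The AT2-like class held 1078 UMIs at 113 CPM (106 to 120) in control cells against 77 UMIs at 44.8 CPM (35.4 to 56.0) in mutant cells, for a ratio of 0.398 (0.311 to 0.501). Within cluster 8, which held 89 control and 196 mutant AT2-like cells, Vsig2 was at 91.4 CPM in control cells against 39.8 CPM in mutant cells, for a ratio of 0.436 (0.308 to 0.613). In the other AT2-like clusters, with 4 and 18 mutant cells, the ratio was 0.967 (0.263 to 2.49) in cluster 0 and 0.713 (0.353 to 1.29) in cluster 3, and both intervals span 1. Airway cells were at 30.2 and 20.7 CPM, a ratio of 0.684 (0.350 to 1.26). Endothelial cells held a low level in both libraries, 12.7 and 13.7 CPM, against 1.53 and 1.95 CPM in mesenchymal and 2.55 and 1.71 CPM in immune cells, so the endothelial level was above that of the other non-epithelial classes. Of 8 listed genes of this family 7 had at least 20 UMIs, 2 were higher (Vsig1 and Vsig2) and 0 were lower. By the same rule 21.9% of 12869 genes were higher and 11.9% lower. Vsig10 was at 22.9 and 42.1 CPM, and Cxadr, the coxsackievirus and adenovirus receptor, was at 171 and 124 CPM, while Gpa33, a gut membrane glycoprotein, had 0 and 36 UMIs.

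**Figure D2:**
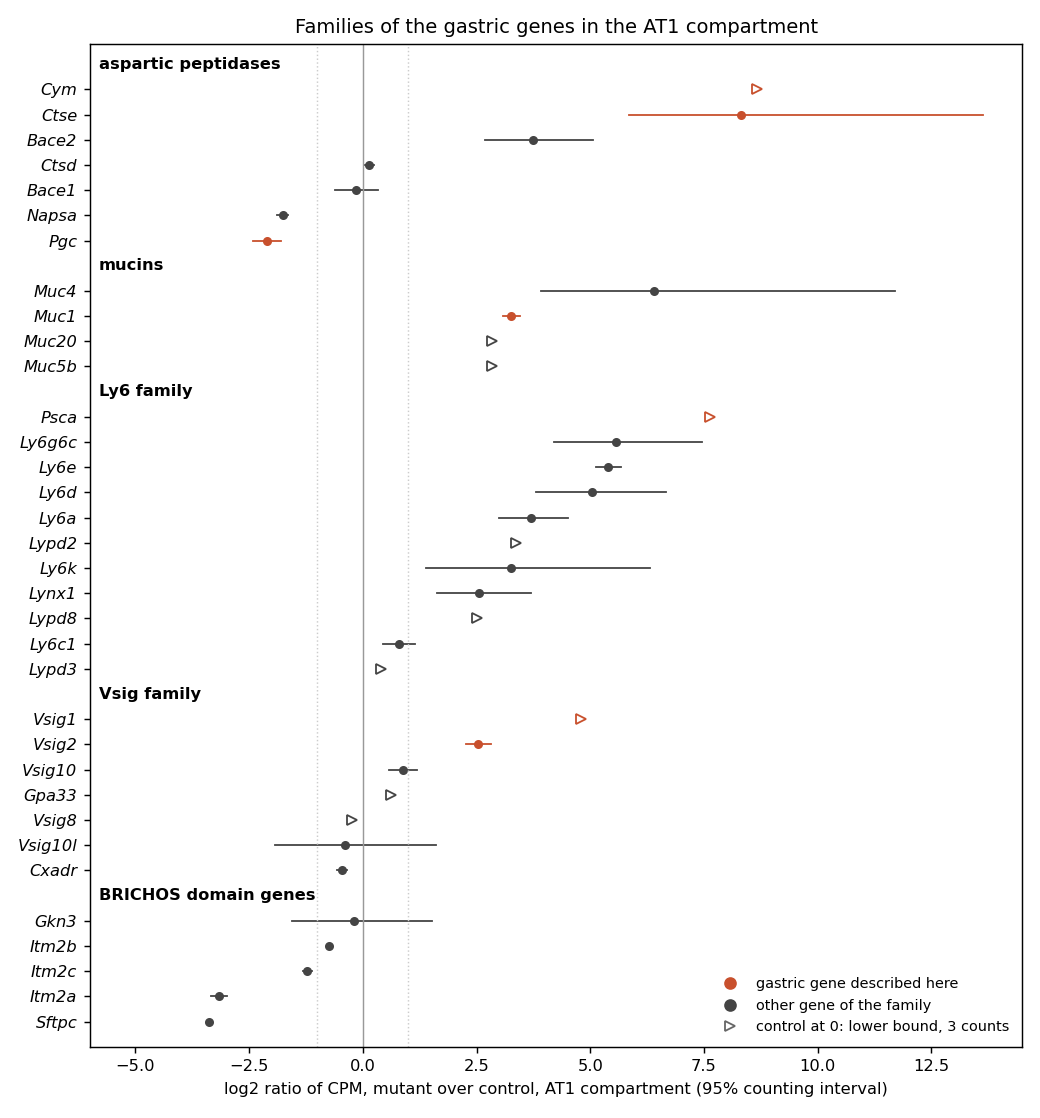
Log2 ratio of CPM, mutant over control, in the AT1 compartment for the measured genes of 5 families, with 95% counting intervals and dotted lines at 2-fold; open triangles are lower bounds for genes at 0 in the control. Within the aspartic peptidases, Cym and Ctse lie to the far right and Pgc and Napsa to the left of 0, while the 4 measured mucins lie to the right and Itm2a and Sftpc to the left.

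In AT2-like, airway, endothelial, mesenchymal and immune cells, no member with at least 20 UMIs was 2-fold higher in the mutant. Some members below 20 UMIs had more in the mutant. In AT2-like cells Cym had 0 control and 7 mutant UMIs, Ctse 1 and 4 (ratio 22.3, 2.20 to 1096) and Psca 2 and 4 (11.1, 1.60 to 123). Mesenchymal Cym had 0 and 14 UMIs and endothelial Cym 2 and 12. Others had fewer, such as Ctse in immune cells (11 and 3) and Muc5ac in airway cells (4 and 0). These counts are small, and the part of free RNA in them was not tested. A further 44 control and 59 mutant cells lay in clusters with markers of more than 1 lineage and were left in no class. In these mixed cells Muc1 was at 64.9 and 222 CPM, a ratio of 3.41 (2.31 to 5.20), and Vsig2 at 25.1 and 72.0 CPM, a ratio of 2.87 (1.51 to 5.90). In AT2-like cells 3 of the 10 had at least 20 UMIs, of which 0 were at least 2-fold higher and 2 were lower (Pgc and Vsig2), where 7.67% of 10576 genes were higher and 4.69% lower. The summed level was 645 CPM in control cells against 563 CPM in mutant cells, for a ratio of 0.872 (0.814 to 0.933). In airway cells 3 of the 10 were measured, 0 were higher and 1 was lower (Pgc), where 9.98% of 8403 genes were higher and 5.49% lower. The airway sum was 264 and 227 CPM, a ratio of 0.863 (0.714 to 1.04). Nkx2-1 was at 346 CPM in control and 303 CPM in mutant AT2-like cells, and at 204 and 123 CPM in airway cells. With the 50 genes of highest count left out of the class total, the AT2-like median log2 ratio of all genes moved by -0.16, from 0.20 to 0.035. The AT2-like sum of members moved by the same constant, from -0.20 to -0.36. Its place below the median is thus fixed in advance under this rescaling, which is no separate check. In endothelial cells 2 members were measured (Muc1 and Vsig2) and 0 called, where 7.1% of genes were higher and 2.28% lower. In mesenchymal cells 2 were measured and 0 called (6.8% and 2.36%), and in immune cells 1 was measured and 0 called (8.32% and 5.75%).

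The mutant compartment was not uniform. It consisted of clusters 1, 4, 5, 6 and 7, which held 0, 0, 0, 2 and 0 control cells, of cluster 9 with 74 control and 172 mutant cells, and of 5 cells of cluster 2. Clusters 5 and 9 scored as AT1-like, and clusters 1, 4, 6 and 7 took no cell type name. Cluster 1 led with Tff1, Lgals4 and Tff2 among all genes, cluster 4 with Cdkn1a and Sprr1a, cluster 6 with the mitotic genes Cenpa and Ccnb2, and cluster 7 with Hist1h1b and Top2a. The AT1 markers summed to 262 CPM in cluster 1, 718 CPM in cluster 4, 876 CPM in cluster 6 and 1207 CPM in cluster 7. They summed to 8330 CPM in cluster 5 and 15973 CPM in the mutant cells of cluster 9. The 10 AT2 markers summed to 469 CPM in cluster 1, 1465 CPM in cluster 4 and 508 CPM in cluster 6. These were at 1053 CPM in cluster 7, 2100 CPM in cluster 5 and 27992 CPM in mutant cluster 9. Clusters 1, 4, 6 and 7 are in the compartment because they took no other name, and their cell of origin was not tested.

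Cym, Ctse, Psca and Vsig1 had their highest level in cluster 1. Cym was at 555 CPM there, at 261 CPM in cluster 4, 249 CPM in cluster 6, 208 CPM in cluster 7 and 95 CPM in cluster 5. In the mutant cells of cluster 9 it was at 4.45 CPM, near the level of the mutant's non-epithelial cells. Cluster 1 held 27.7% of the mutant compartment's cells and 55.2% of its Cym UMIs, 57.5% of its Ctse UMIs, 65.4% of its Psca UMIs and 65.2% of its Vsig1 UMIs. Psca was at 320 CPM in cluster 1, 14.0 CPM in cluster 5 and 2.54 CPM in mutant cluster 9. Ctse was at 152, 10.8 and 2.54 CPM in the same clusters. Vsig1 was at 44.8 CPM in cluster 1 and at 0.450 CPM (2 UMIs) in cluster 5, so that in cluster 5 Cym, Psca and Ctse were seen while Vsig1 was close to absent.

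Vsig2 and Muc1 were spread more evenly. Vsig2 lay between 130 and 211 CPM in clusters 1, 4, 5, 6 and 7, which included 155 CPM in cluster 5. Muc1 was at 228 CPM in cluster 5, 454 CPM in cluster 6, 418 CPM in cluster 7, 637 CPM in cluster 4 and 769 CPM in cluster 1, against 12.4 CPM in control cluster 2. Pgc was at 13.7 CPM in cluster 5 and between 3.95 and 7.12 CPM in clusters 1, 4, 6 and 7, against 25.1 CPM in control cluster 2. In the AT1-like clusters alone, an alternative chosen after seeing the data, Cym was at least 95.7-fold higher, Muc1 4.17-fold higher and Vsig2 4.43-fold higher, Pgc had a ratio of 0.505 (0.387 to 0.656), and the sum was 3.94-fold higher. There Vsig1 had 0 and 3 UMIs, and no fold is given.

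Cluster 9, the part of the compartment with many cells of both libraries, had lower levels of Pgc, Muc1 and Vsig2 in its mutant cells, while Muc1 and Vsig2 were higher in the mutant compartment as a whole. Pgc was at 86.5 CPM in its control cells and 27.3 CPM in its mutant cells, a ratio of 0.316 (0.205 to 0.483). Muc1 was at 309 and 248 CPM, a ratio of 0.803 (0.672 to 0.963), and Vsig2 at 79.7 and 46.4 CPM, a ratio of 0.582 (0.398 to 0.858). Of the 3 measured members 0 were at least 2-fold higher and 1 was lower, where 15% of 7515 genes were higher and 2.97% lower. Nkx2-1 was at 480 CPM in the control cells and 187 CPM in the mutant cells of this cluster, against 15.3 CPM in cluster 5 and between 2.64 and 3.95 CPM in clusters 1, 4, 6 and 7. The 10 AT2 markers summed to 119275 CPM in its control cells and 27992 CPM in its mutant cells, and their part in these ratios was not tested.

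**Figure D3:**
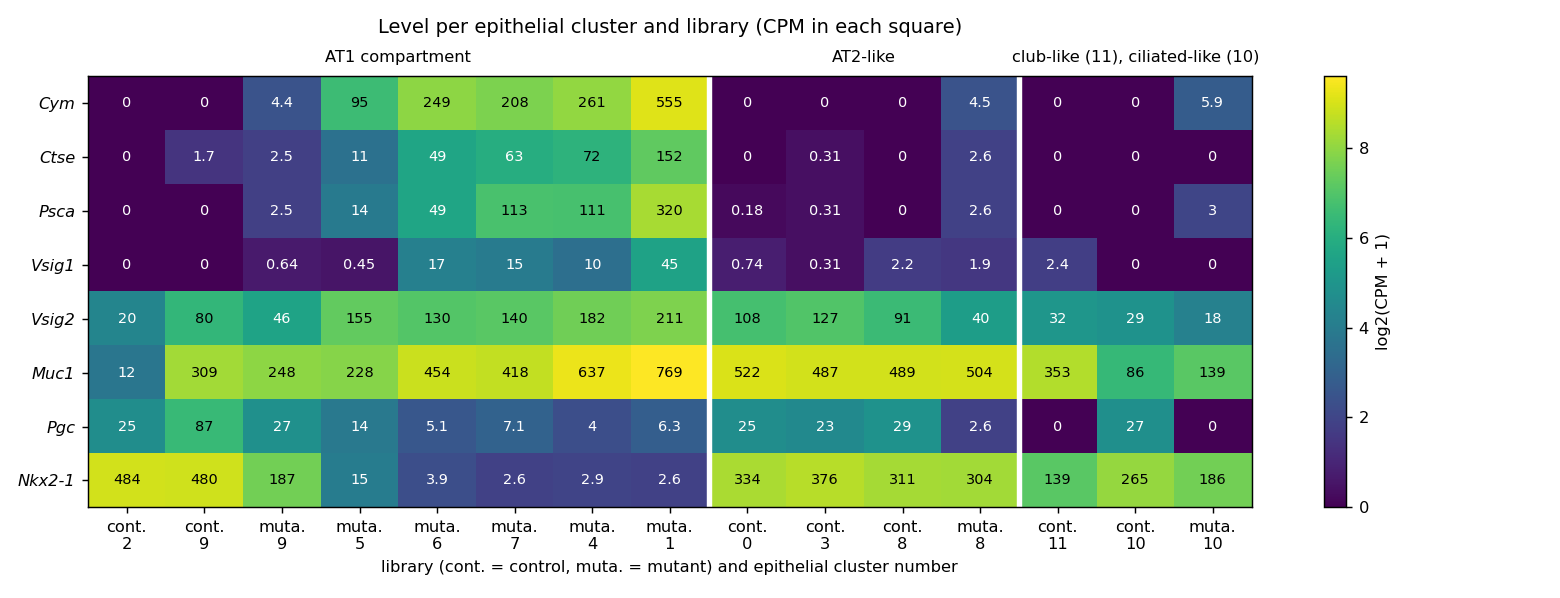
CPM of 7 members and Nkx2-1 (rows) in each epithelial cluster and library with at least 30 cells (columns), with color giving log2(CPM + 1). Across the compartment's columns from control cluster 2 to mutant cluster 1, Cym goes from 0 to 555 CPM, Muc1 from 12.4 to 769 CPM and Nkx2-1 from 484 to 2.64 CPM, and Pgc is highest at 86.5 CPM in control cluster 9.

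How the UMIs were shared out among cells differed by gene. Cym was seen in 23.8% of mutant compartment cells, and the 10% of cells with the most held 93.1% of its UMIs. A single cell reached 423 Cym UMIs, and the top 1% of cells held 42.9% of the total. The top 10% of cells by each gene held 75.6% of Vsig1 UMIs, 65.3% of Psca UMIs, 56.7% of Ctse UMIs, 42.3% of Vsig2 UMIs and 32.9% of Muc1 UMIs. The most UMIs in a cell were 54 for Psca, 22 for Ctse and 69 for Muc1. Muc1 was seen in 90.4% of the cells.

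**Figure D4:**
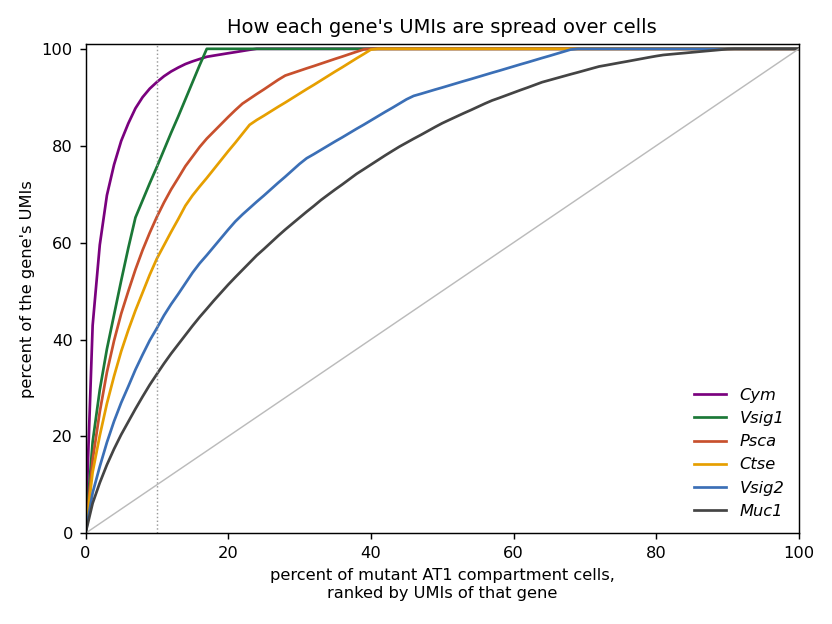
Cumulative percent of each gene's UMIs (vertical axis) over mutant AT1 compartment cells ranked by that gene's UMIs (horizontal axis), with a dotted line at 10% of cells and a diagonal for an even spread. At the dotted line Cym has reached 93.1% and Muc1 32.9%.

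Shares of cells with a UMI depend on depth, so each cell was thinned to 2000 UMIs, which left out no cell. After thinning, Cym was seen in 12.6% of mutant compartment cells (11.3 to 14.1), Ctse in 11.7%, Psca in 16.0%, Vsig1 in 3.39%, Vsig2 in 23.3% and Muc1 in 56.2%. Before thinning the shares were 23.8%, 40.2%, 39.2%, 17%, 68.4% and 90.4%. In control compartment cells, the thinned shares were 0% for Cym, Ctse, Psca and Vsig1, 4.58% for Vsig2 and 7.46% for Muc1. In mutant endothelial cells, which should lack most of these genes, they were 0.612% for Cym, 0% for Ctse, 0.204% for Psca, 3.27% for Vsig2 and 1.02% for Muc1.

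The number of members per cell was then counted. At least 1 of the 10 was seen in 72.3% of thinned mutant compartment cells (70.4 to 74.2) and 14.6% of control compartment cells (11.8 to 17.7). At least 2 were seen in 35.4% of mutant and 2.37% of control cells, and at least 3 in 12.8% of mutant cells and 0 of 590 control cells, with the same limits as above. The most in 1 cell was 6 members. Control AT2-like cells reached 67.6% for at least 1 member, with Muc1 itself seen in 58.7%, but 0.242% for at least 3. Endothelial cells were at 5.21% in the control and 5.10% in the mutant for at least 1 member. By cluster, at least 2 members were seen in 63.0% of cluster 1 cells, 42.4% of cluster 4, 29.3% of cluster 7, 21.9% of cluster 6, 14.4% of cluster 5 and 4.65% of mutant cluster 9.

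**Figure D5:**
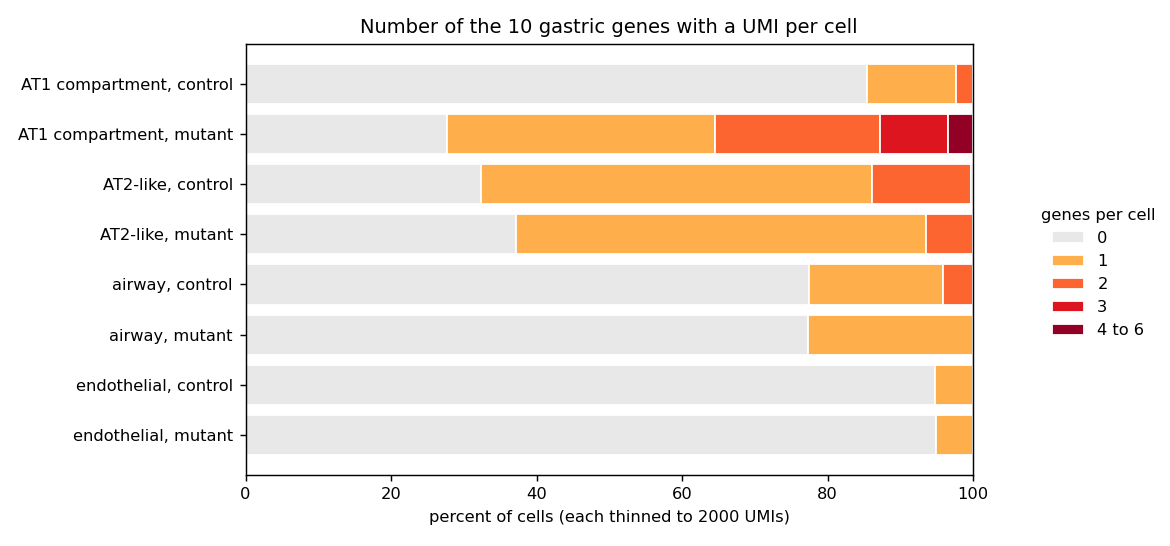
Percent of cells (horizontal axis, each cell thinned to 2000 UMIs) in which 0, 1, 2, 3 or 4 to 6 of the 10 genes had a UMI, by cell class and library. Cells with 3 or more members make up 12.8% of the mutant AT1 compartment and 0.242% of control AT2-like cells, and cells with 0 members are the largest part of the control AT1 compartment.

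Members were seen together to different degrees. In thinned mutant compartment cells, 30.9% of the 265 cells with Ctse held Psca (25.4 to 36.9), against 14.0% of cells without Ctse (12.6 to 15.6). Of the 287 cells with Cym, 22.0% held Ctse (17.3 to 27.2), against 10.2% of cells without Cym (8.88 to 11.6). Cym and Psca overlapped less clearly, at 20.9% (16.3 to 26.1) against 15.3% (13.8 to 17), and these intervals meet. Of the 77 cells with Vsig1, 35.1% held Psca (24.5 to 46.8), against 15.3% of the rest. Pgc, in 34 cells, was seen at 14.7% with Cym (4.95 to 31.1), against 12.6% of cells without Pgc. Cells of 1 library share that library, so these intervals hold for its cells and not for mice.

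Cells with at least 2 members carried fewer AT1 and AT2 marker transcripts than cells with none. After thinning, the 805 mutant compartment cells with at least 2 members held AT1 markers at 1042 CPM, the 839 cells with 1 member at 3228 CPM and the 629 cells with none at 5882 CPM. AT2 markers were at 1066, 4159 and 4204 CPM in the same order. The mutant cells of cluster 9, with AT1 markers at 15973 CPM and AT2 markers at 27992 CPM, were unevenly shared among these groups. They gave 92 of the cells with none and 72 of those with 1 member, while 4.65% of the 172 held at least 2. The part of cluster 9 in these marker differences was not tested. The trefoil factors, which were not used in the count, were at 1386, 504 and 177 CPM. Mitosis genes were at 395, 613 and 715 CPM. Nkx2-1 was at 7.45 CPM in cells with at least 2 members, 31.6 CPM with 1 and 20.7 CPM with none, so it was not lowest in cells with no member. In the 66 mutant compartment cells with an Nkx2-1 UMI after thinning, Cym was seen in 3.03% (0.369 to 10.5) and Psca in 4.55% (0.947 to 12.7), against 12.9% and 16.4% of the 2207 cells without one. Muc1 was seen in 51.5% (38.9 to 64.0) and 56.4% of these cells, and the intervals meet. The cells with Nkx2-1 held AT2 markers at 35985 CPM against 2092 CPM in the rest, and the part of that difference in these shares was not tested.

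The genes most like each member were ranked by Pearson's r of log2(CPM + 10) over 21 profiles, 1 for each epithelial cluster or non-epithelial lineage and library with at least 30 cells. The profiles share 2 libraries and differ in depth, so the values are descriptions. Cym was most like Hnf4a (0.98), Ncmap and Foxa3. Ctse was most like Psca (0.99), and Psca was most like Tff1 (0.99), followed by Ctse and Serpinb11. Vsig1 was most like Wfdc15b (0.98), and A630076J17Rik was also among its 3 most like genes. Muc1 was most like Mapk13 (0.96), Sftpd and Syngr1, and Vsig2 was most like Hpn (0.94), Bex1 and Rab27b. Pgc was most like Gm20554 (0.92), Gm12454 and Abca4. Among members, r was 0.97 for Cym with Psca, 0.89 for Muc1 with Vsig2 and -0.14 for Cym with Pgc. With Nkx2-1 it was -0.55 for Cym and 0.68 for Pgc.

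Other gastric and gut genes of the compartment were read from lists. Of 26 other gastric lineage genes, 24 were in the matrices, 15 had at least 20 UMIs, 7 were at least 2-fold higher and 4 lower. Agr2, a secretory pathway protein of mucous cells, was at 0 and 110 CPM and at least 149-fold higher, and Anxa10, an annexin of gastric epithelium, at 0 and 62.3 CPM and at least 84.3-fold higher. Cldn18, a junction protein with lung and stomach forms, was at 3205 and 645 CPM, 4.96-fold lower, and Tspan8, a tetraspanin, was at 1186 and 535 CPM. Markers of the acid and chief lineages differed among themselves. Slc9a4, a sodium-proton exchanger of parietal cells, had 0 and 637 UMIs (20.1 CPM) and was at least 27.2-fold higher. Atp4a, a subunit of the proton pump of parietal cells, had 0 and 92 UMIs and was at least 3.92-fold higher, while Atp4b, the other subunit, had none. Kcne2, a potassium channel subunit, was at 120 and 161 CPM. Aqp4, a water channel of the same list, was lower in the mutant. It had 37 control and 111 mutant UMIs, a ratio of CPM of 0.384 (0.262 to 0.573). Of the chief cell genes, Bhlha15 had 0 and 43 UMIs, Gif 1 and 3, and Lipf none. The 3 trefoil factors were each at 0 in the control compartment and at 324 CPM for Tff1, 485 CPM for Tff2 and 11.5 CPM for Tff3 in the mutant.

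Of 28 gut and foregut transcription factors 21 had at least 20 UMIs, of which 13 were higher and 2 lower. Ehf, an ETS factor of secretory epithelia, was at 0.247 and 44.5 CPM, and Foxa3 at 0.493 and 26.3 CPM, a ratio of 53.3 (14.7 to 441). Klf5 was at 75.2 and 187 CPM. Hnf4a had 0 and 894 UMIs (28.2 CPM) and was at least 38.1-fold higher. Spdef had 0 and 522 UMIs (16.5 CPM) and was at least 22.3-fold higher. The gastric and intestinal factors Pdx1, Cdx1, Cdx2, Barx1 and Gata4 had 0 UMIs in both compartments. Of 23 intestinal genes 11 were measured, 6 were higher and 0 lower, with Lgals4, a galectin of gut epithelium, at 1.5 and 217 CPM, the apolipoprotein Apoa1 at 0 and 53.2 CPM, and the claudin Cldn3 at 211 and 199 CPM. Of 10 mitosis genes 10 were higher, among them Birc5 at 0.247 and 115 CPM, Top2a at 2.47 and 114 CPM and Ube2c at 1.5 and 112 CPM. Of 11 AT1 markers 11 were lower, among them Ager at 21058 and 1306 CPM, Igfbp2 at 3115 and 213 CPM and Rtkn2 at 680 and 17.1 CPM. The median log2 ratio, with genes at 0 in the control at their floor, was 8.78 for the trefoil factors, 3.06 for the mucins, 3.37 for the Ly6 family, 0.14 for the peptidases, -1.22 for the BRICHOS genes and 0.62 for the Vsig family. It was 0.88 for the other gastric genes, 1.51 for the transcription factors, 1.23 for the intestinal genes, 5.50 for mitosis and -3.61 for the AT1 markers, against 0.17 over all genes. These lists were chosen with results of these data known and are read beside the 21.9% and 11.9% of all genes. Listed genes at 0 in the control passed the 20 UMIs through the mutant alone, so the counts describe the lists and are not support.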

How the data were processed

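Single-cell suspensions from mouse lungs at postnatal day 10 were sorted by FACS and run on the 10x 3' platform, per the labels' protocols. What the authors deposited is a matrix of raw UMI counts for each library, not normalised; Cell Ranger, Seurat and mm10 stand in the submitters' processing notes, with no version. Gene names came from the files.

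Barcodes with at least 500 genes and under 10% mitochondrial UMIs were kept, and 77 control and 91 mutant cells were removed as doublets scored against simulated ones (1.86% and 2.06% of cells). The scorer caught 42.5% and 41.7% of simulated doublets, so some remain. Counts were log-normalised and clustered (Python 3.11.15, scikit-learn 1.9.0, leidenalg 0.10.2) on 2000 variable genes and 30 principal components with 20 neighbours, at resolution 1. The members, other gut genes, mitosis genes and all genes of the family and factor lists were left out of the variable genes. This removed Sftpc, Napsa and Nkx2-1 too, and sex-linked, ribosomal and mitochondrial genes were also left out. An epithelial cluster took a name where its markers had a mean log2 fold of at least 1.5 over cells of other lineages. For immune clusters the fold was taken over the other immune clusters. In both, at least 3 markers had to be seen in 10% of cells. A name was dropped where another type had more markers among the 10 leading genes of the cluster. These naming thresholds were set after the data were seen, and the names are rebuilt, not the authors'.

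UMIs were summed by class and library and given as CPM with exact Poisson intervals, ratios with exact binomial intervals and shares with Clopper-Pearson intervals, all at 95% and for counting error only. A gene at 0 UMIs in a library took a floor of 3 counts over the class. A gene was counted as measured from 20 UMIs summed over the libraries, and called at 2-fold. Shares were taken after each cell was thinned to 2000 UMIs. From each list, the text names the 2 genes of highest level and the 2 of largest ratio, and for each member with at least 50 UMIs the 3 genes most like it, beside all members, except 1 gene that is not reported here; further genes, such as Muc5b, the acid and chief lineage markers and the factors at 0, were named after their values were seen. The ratio interval, the floor and the thinning were tested on simulated data, while the clustering, naming and doublet steps were not. The members and lists were chosen with earlier results of these data known. Promoters came from RefSeq and gene positions from GENCODE.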

Additional observations from a re-analysis of the deposited data

Results flagged for a closer look

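Vsig2 had a mutant-to-control ratio of 5.82 (4.84 to 7.06) in the AT1 compartment and 0.398 (0.311 to 0.501) in AT2-like cells, on opposite sides of 1. In cluster 9, the part of the compartment with many cells of both libraries, the ratio was 0.582 (0.398 to 0.858). Most other mutant cells of the compartment lay in clusters 1, 4, 5, 6 and 7, which held 0, 0, 0, 2 and 0 control cells. With 1 library per group, the difference between these ratios was not tested.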

How the results depend on the processing

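The sum over members in the AT1 compartment had a log2 ratio of 3.41, and over 9 alternatives it stayed positive. It was 4.16 with each library clustered alone, 3.16 with doublets kept, 3.82 at resolution 2, 1.37 over all epithelial cells and 1.98 in the AT1-like clusters alone, an alternative chosen after seeing the data. The count of members at least 2-fold higher was 6, and 4 to 6 over 10 alternatives. In the main setting 21.9% of 12869 genes were higher, and that share is given for the main setting only. Cym, Ctse, Psca and Vsig1 pass the 20 UMIs through the mutant alone, so a steady count is not support. The share of mutant compartment cells with a member was 72.3%, and became 70.1% over all epithelial cells, 48.4% in the AT1-like clusters alone and 55.0% when thinned to 1000 UMIs. The AT2-like sum (-0.20) was -0.036 without the mitochondrial filter, -0.36 without the 50 genes of highest count and 1.37 over all epithelial cells, where AT1 compartment cells enter the sum. The airway sum (-0.21) was 0.30 with each library clustered alone, for which the cause was not tested, and 1.37 over all epithelial cells. In the AT1 compartment Muc1, at 3.26, ranged from 0.56 to 4.87, while no single gene changed direction under the alternatives run. Single genes in AT2-like and airway cells, such as Pgc and Vsig2, were not rerun under the alternatives. No paired analysis was possible because each group holds 1 library, and for the same reason no library could be left out. Depth limits Gkn1, Gkn2 and Muc5ac, whose levels were at or under the floor.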
